A study of Homo sapiens with 7 samples.

Results

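CTCF peaks were examined around the alpha-globin genes on chromosome 16, at HBZ, HBM, HBA2, HBA1 and HBQ1 and at NPRL3, the neighbouring gene that carries the main upstream enhancers of the cluster. The 6 genes are all of the genes listed for the locus. In hg19 (GRCh37, GENCODE gene records) they spanned chr16:134270-231178, and all peaks overlapping this span extended by 50 kb on each side, chr16:84270-281178 (196.9 kb), were taken. This gave 9 of the 33094 peaks of control cells and 12 of the 32917 peaks of cells treated with pyridostatin (PDS). No fold, p-value or rank entered this choice.

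The cells were K562, an established line of human myelogenous leukaemia with erythroid features, and PDS is a small molecule that stabilizes folded G-quadruplexes (G4s). CTCF ChIP-seq comprised 7 samples, which were 2 CTCF samples and 1 IgG sample of cells without PDS, and 2 CTCF and 2 IgG samples of cells given 10 μM PDS for 24 h. The labels name 1 peak list for all CTCF and IgG samples of a condition, so each peak has a single fold enrichment and a single p-value per condition, no SD, and from these lists no difference between the conditions can be set against the spread between replicates. Read depth is unknown because the lists hold no counts. The labels describe single-end reads of 50 bp, whereas the methods describe paired-end libraries. Because the lists were called separately and the IgG samples behind each fold are not stated further, folds of a peak in the lists were not set against each other, and each peak was placed by its percentile within its own list, where a higher percentile means a higher fold or a smaller p-value.

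Hemoglobin combines alpha-type and beta-type chains. HBZ encodes the embryonic zeta chain, HBA2 and HBA1 encode the same adult alpha chain, and HBM (mu) and HBQ1 (theta) are minor members of the family. The genes lie on the plus strand in the order HBZ, HBM, HBA2, HBA1 and HBQ1, and their transcription in erythroid cells depends on enhancers located upstream, several of them in introns of NPRL3, which is read from the other strand and encodes a subunit of the GATOR1 complex, an inhibitor of mTORC1 signalling. CTCF is a zinc-finger protein that, with cohesin, anchors chromatin loops, most often between binding sites whose motifs face each other. G4s are structures of stacked guanine tetrads that G-rich strands can form.

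CTCF matches were searched on both strands, as the ChIP-exo CTCF consensus without mismatch and as the 15-mer predicted from CTCF zinc fingers 3 to 7 with at most 3 mismatches. A 15-base match to either was present in 5 of the shared peaks described below, all in both lists. The sequences of 3 of them are given first because they lie in peaks of high rank and their strands differ. The matches are in capitals with 10 flanking bases, and each is written 5′ to 3′ on the strand of its match. The first lies in intron 9 of NPRL3 (chr16:147048-147082, minus strand), the second in intron 7 of NPRL3 (chr16:157194-157228, plus strand) and the last behind HBQ1 (chr16:231561-231595, minus strand).
NPRL3 intron 9: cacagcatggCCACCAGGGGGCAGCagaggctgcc
NPRL3 intron 7: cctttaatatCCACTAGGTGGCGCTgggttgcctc
HBQ1 downstream: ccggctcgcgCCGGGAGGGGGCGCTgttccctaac

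Intron 4 of NPRL3 held a CTCF match on the plus strand (chr16:167930-167944) and a G4 motif on the minus strand (chr16:167949-167975), with 4 bases between them. The stretch chr16:167900-168005 is given on the plus strand because it was the closest pair of a CTCF match and a G4 motif within a peak of the locus. Capitals mark the CTCF match and, after the short gap, the C-rich strand of the G4 motif.
NPRL3 intron 4: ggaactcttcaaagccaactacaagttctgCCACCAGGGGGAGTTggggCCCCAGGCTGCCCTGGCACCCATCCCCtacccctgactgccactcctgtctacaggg

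As G4 motifs, stretches of 4 runs of at least 3 G were searched on both strands, with 1 to 7 nt allowed between neighbouring runs. The 4 motifs that lay inside CTCF peaks of the locus are written on their G-rich strand with the runs in capitals. They are the motif of NPRL3 intron 4 named above, 2 motifs in HBQ1 (chr16:230598-230620, minus strand, and chr16:230902-230923, plus strand) and 1 motif behind HBQ1 (chr16:231378-231404, plus strand).
G4 of NPRL3 intron 4: GGGGatGGGtgccaGGGcagcctGGGG
G4 of HBQ1, first: GGGaGGGcccctGGGGGcGGGGG
G4 of HBQ1, second: GGGaGGGccccggcGGGGtGGG
G4 behind HBQ1: GGGccgcGGGacgccccGGGcggcGGG

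The window was rich in CTCF peaks. It held 4.57 control peaks and 6.09 PDS peaks per 100 kb, against 1.46 and 1.57 on chromosome 16 and 1.07 and 1.06 on all chromosomes. Control peaks covered 2.50% of the window and PDS peaks 2.74%, and 0.450% and 0.448% of all chromosomes. The window peaks were also wider than usual, with medians of 600 bp (120 to 960 bp) in control cells and 425 bp (100 to 950 bp) in PDS-treated cells, against 360 and 300 bp over the whole lists. Their median GC content was 59.4% and 58.1%, against 55.0% and 55.2% on chromosome 16 and 51.0% and 53.0% on all chromosomes.

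Every CTCF peak of the control list in the window had a counterpart in the PDS list. Thus 9 of 9 control peaks overlapped a PDS peak by at least 1 bp (100%, Wilson 95% confidence interval 70.1 to 100%), against 78.0% of all control peaks and 86.5% of those on chromosome 16. Of the PDS peaks, 9 of 12 overlapped a control peak (75%, interval 46.8 to 91.1%), against 78.6% of all PDS peaks and 80.2% of those on chromosome 16. These intervals cover counting error only, and both held the shares of the whole list and of chromosome 16.

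**Figure D1:**
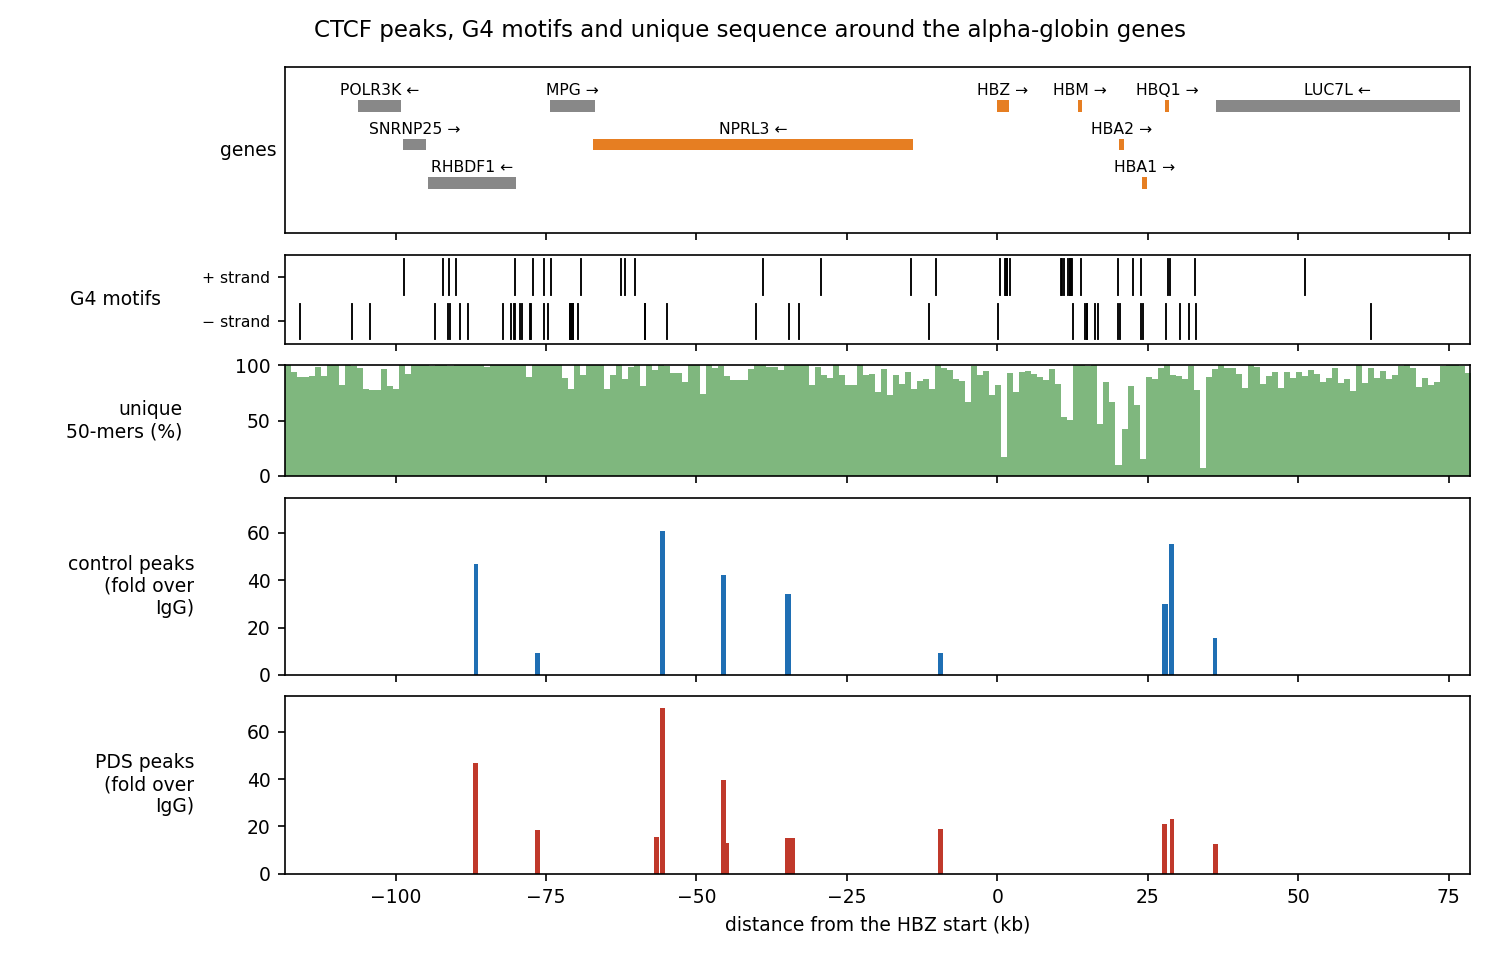
The alpha-globin window by distance from the HBZ start (kb), with the genes (member genes in orange, neighbours in grey, arrows giving the strand), G4 motifs on each strand, the percentage of unique 50-mers per 1 kb, and the fold enrichment of each control (blue) and PDS (red) peak over IgG, narrow peaks being drawn at a minimum width. The 9 control peaks all recur among the 12 PDS peaks, and no peak of either list falls between the upstream side of HBZ and HBQ1.

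NPRL3 carried 3 of the control peaks and 6 of the PDS peaks, all within introns of its canonical transcript of 15 exons (chr16:135385-188672). The strongest peak of the window by fold in both lists was that of intron 9. It reached a fold of 60.7 at chr16:146701-147240 in control cells, which was rank 2086 by fold (percentile 93.7), and a fold of 69.9 at chr16:146701-147250 in PDS-treated cells, rank 50 (percentile 99.9). Its place by p-value was percentile 98.3 and 96.2, respectively. The peak thus stood near the top of both lists by either measure, and its borders differed by at most 10 bp. It held the consensus match on the minus strand shown above and no G4 motif, the nearest one being 558 bp and 548 bp away.

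The peak of NPRL3 intron 7 was also high in both lists. Its fold was 42.3 in control cells (chr16:156841-157440, percentile 81.6) and 39.7 in PDS-treated cells (chr16:156801-157450, percentile 97.3, rank 894). By p-value its percentile was 85.0 in control cells and 74.9 in PDS-treated cells, so its place rose by one measure and dropped by the other. It contained the other consensus match, on the plus strand. No G4 motif lay within 5 kb of it, the distance to the nearest being 5145 bp and 5135 bp.

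The peak of NPRL3 intron 4 combined a CTCF match with a G4 motif. It covered the same 900 bp in both lists, chr16:167401-168300. Its fold was 34.0 in control cells (percentile 69.3) and 15.2 in PDS-treated cells (percentile 40), whereas its percentile by p-value was 86.8 and 92.9. Its percentile by fold thus fell by 29.4 points from control to PDS-treated cells, the widest fall of the window, while its percentile by p-value was 6.10 points higher. Fold and p-value therefore placed this peak in opposite orders, and no change of occupancy can be read from either alone.

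All 3 window peaks that were present in the PDS list only were narrow peaks beside these 3 shared peaks of NPRL3. The first, in intron 9 (chr16:145901-146050, 150 bp), had a fold of 15.5 (percentile 42.0) and lay 650 bp from the shared peak. The second, in intron 7 (chr16:157651-157800, 150 bp), had a fold of 12.8 (percentile 26.0) and lay 200 bp away, and the last, in intron 4 (chr16:168551-168650, 100 bp), had a fold of 15 (percentile 39.1) and lay 250 bp away. Their percentiles by p-value were 30, 42.3 and 8.67. None of the 3 contained a G4 motif or a CTCF match. Such neighbours were common in the PDS list, where 3625 of the 7031 peaks without a control counterpart (51.6%) lay within 1 kb of a shared peak, compared with 992 of the 7274 control peaks without a PDS counterpart (13.6%). Peak borders moved in steps of 60 bp in control cells and of 50 bp in PDS-treated cells. The narrowest peaks of the whole lists were 120 bp (control) and 100 bp (PDS), and the methods state a sliding window of 100 bp. The part of the difference in steps in the side peaks was not tested.

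The peak nearest to HBZ lay far upstream. It was 9323 bp (control, chr16:193141-193320) and 9343 bp (PDS, chr16:193151-193300) before the start of the canonical HBZ transcript (chr16:202643-204502), and 4469 and 4479 bp before the start of NPRL3, which reads in the opposite direction. The fold was 9.38 in control cells (percentile 6.82) and 18.9 in PDS-treated cells (percentile 61.6). This was the widest rise in percentile by fold in the window, 54.8 points, but by p-value the percentile was 42.3 in control cells and 37.9 in PDS-treated cells. The peak held no G4 motif and no CTCF match. A longer HBZ record of the annotation (chr16:192727-204502) runs over it, with 0 annotated exons there.

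No peak of either list lay over the canonical transcript of HBZ, HBM, HBA2 or HBA1. The widest stretch between peaks of the window ran from chr16:193321 to chr16:229980 (36.7 kb), from upstream of HBZ to just before HBQ1, and was free of peaks in both lists. It was not the widest of the surroundings. A wider stretch in both lists, 45700 bp in the PDS list, ran from the peak at the end of LUC7L across the window border to a peak at FAM234A. The nearest peak to the start of HBM was 14004 bp away in control cells and 14024 bp in PDS-treated cells. For HBA2 the distances were 7106 and 7126 bp, and for HBA1 3302 and 3322 bp. Both adult alpha genes thus lay closer to the peaks at HBQ1 than to any peak of NPRL3.

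The absence of peaks over the adult alpha genes has a limit in the sequence itself, because reads that do not map uniquely were removed by the authors. Only 24.9% of the 50-mers of HBA2 (chr16:222875-223709) and 25.7% of those of HBA1 (chr16:226679-227521) occur once in the reference chromosomes. For HBZ the value was 40.1%, while it was 100% for HBM (chr16:215977-216763) and HBQ1 (chr16:230458-231178) and 92.7% for NPRL3. Runs of 500 bp or more without unique 50-mers comprised a pair of 513 bp in HBA2 and HBA1 and a pair of 871 bp in HBZ and its pseudogene HBZP1, with 2 copies each. In the whole peak-free stretch from upstream of HBZ to HBQ1 77.8% of 50-mers were unique, and in the window 89.8%. HBM, fully unique, had no peak. Single reads of 50 bp that fall within the repeated parts of HBZ, HBA2 and HBA1 cannot be placed, and how far reads from their flanks could have shown occupancy there was not tested.

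HBQ1, the last gene of the cluster, was the only globin gene of the locus with a peak over its transcript, and it had another right behind it. The first peak spanned chr16:229981-230940 in control cells (960 bp, the widest of the window) and chr16:230001-230750 in PDS-treated cells (750 bp), and covered the HBQ1 start with exons 1 and 2. Its fold was 29.8 (percentile 59.6) in control cells and 20.8 (percentile 69.5) in PDS-treated cells, with percentiles by p-value of 99.1 and 98.4. It stood in the middle ranks by fold and near the top by p-value in both lists. A CTCF match lay on the minus strand at chr16:230402-230416, 41 bases before the HBQ1 start. The control peak contained both G4 motifs of HBQ1 and the PDS peak only the first, since its right border was 190 bp shorter.

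The peak behind HBQ1 began 122 bases (control, chr16:231301-231960) and 172 bases (PDS, chr16:231351-231950) after the end of the gene. Its fold was 55.5 in control cells (percentile 91.6) and 23.1 in PDS-treated cells (percentile 77.3). By p-value it moved the other way, from percentile 95.5 to 99.1, which was rank 300 of the PDS list. It held the G4 motif and the CTCF match shown above, 13 of 15 bases of which matched the predicted 15-mer, with 166 bases between them.

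**Figure D2:**
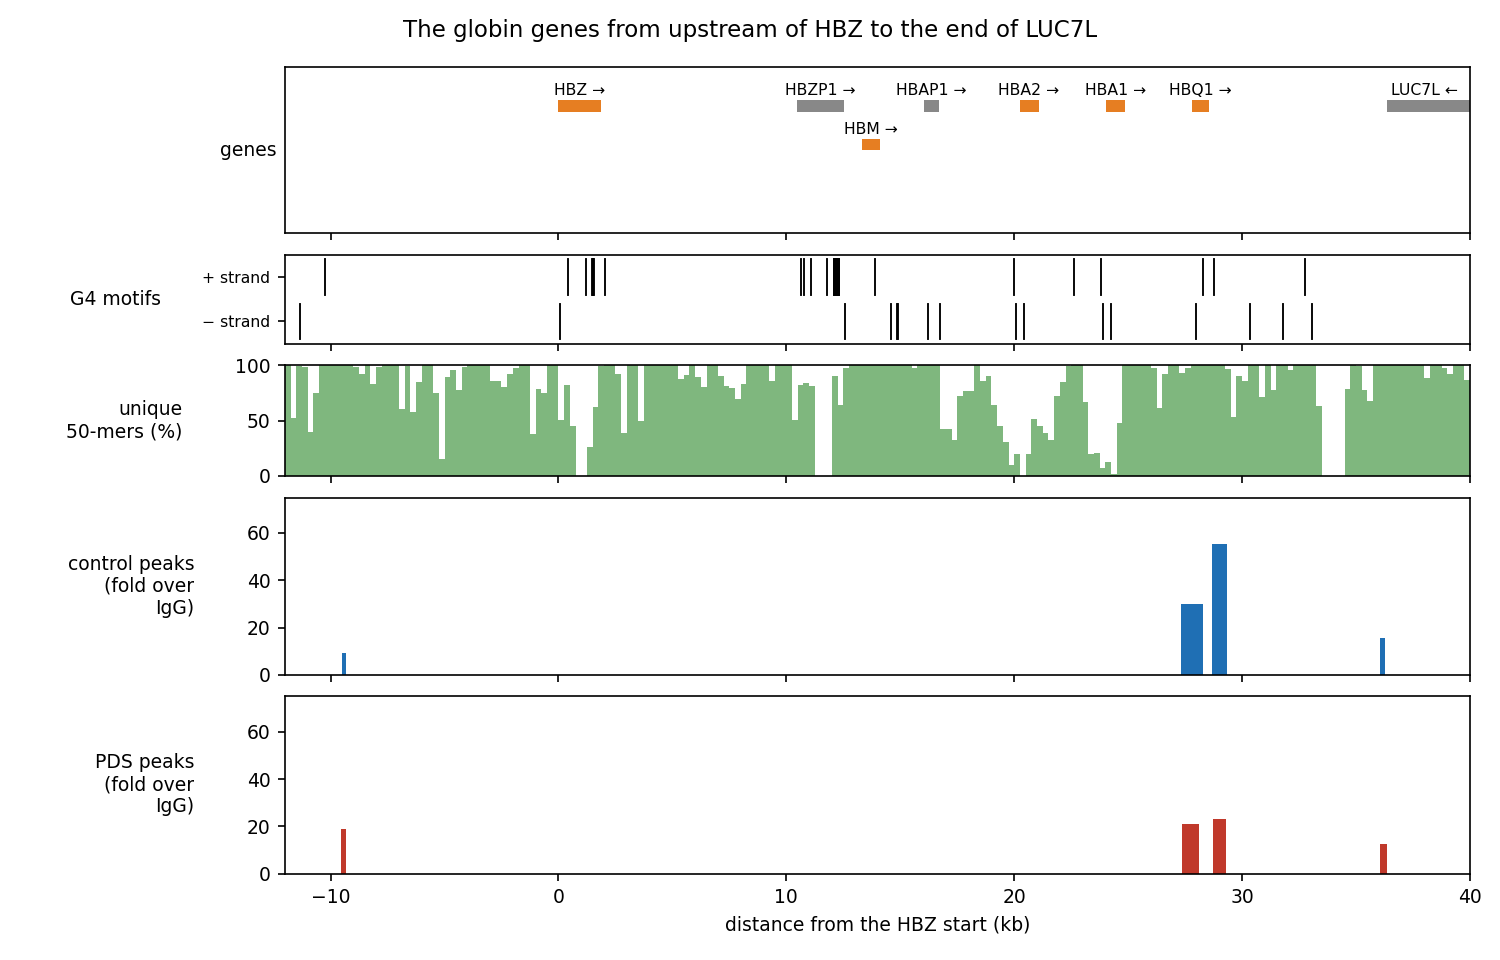
The globin genes by distance from the HBZ start (kb), with the pseudogenes HBZP1 and HBAP1, G4 motifs by strand, the percentage of unique 50-mers per 0.25 kb, and the fold enrichment of control (blue) and PDS (red) peaks over IgG, narrow peaks being drawn at a minimum width. Many G4 motifs lie in the stretch without a peak in either list, and unique sequence drops at HBZ, HBZP1, HBA2 and HBA1. The peaks of the right-hand side lie at HBQ1 and at the end of LUC7L.

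The CTCF matches on the 2 sides of the globin genes were on opposite strands. Upstream, the matches of NPRL3 introns 7 and 4 were on the plus strand. Downstream, the matches before and behind HBQ1 were on the minus strand. The innermost pair, in intron 4 and before HBQ1, faced each other over 62.5 kb that contained HBZ, HBM, HBA2 and HBA1. The match of intron 9 was on the minus strand and did not follow this arrangement. Loops between these sites were not measured here, and a match is a description of sequence, not of a bound site.

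Of the control peaks in the window, 2 of 9 had the consensus (22.2%, interval 6.32 to 54.7%), against 17.3% of all control peaks, and 4 of 9 had the 15-mer (44.4%, interval 18.9 to 73.3%), against 21.7%. In the PDS list the consensus was found in 2 of 12 (16.7%, interval 4.70 to 44.8%), against 14.4%, and the 15-mer in 4 of 12 (33.3%, interval 13.8 to 60.9%), against 20.1%. The match of intron 7 counted under both. Over 200 bp at the peak centre, the consensus was found in 11.1% of window peaks and 13.4% of all peaks of control cells, and in 16.7% and 9.76% for PDS-treated cells. Among tiles of the same 200 bp along chromosome 16, 0.2% held the consensus. The intervals of the window held the whole-list shares, so a difference from all peaks was not detectable at this number of peaks.

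The other shared peaks lay at neighbouring genes. The peak in intron 1 of RHBDF1, which encodes an inactive rhomboid protein, had a fold of 47.0 in control cells (chr16:115621-116400, percentile 86.0) and 46.8 in PDS-treated cells (chr16:115451-116400, percentile 98.8), and it was among the 3 highest of the window by fold in both lists. By p-value its percentile was 98.9 in control cells and 93.4 in PDS-treated cells. Another peak lay upstream of the canonical RHBDF1 transcript but over the 5′ end of the longer gene record. It was 1864 bp (control) and 1924 bp (PDS) before the canonical start of MPG, which reads in the opposite direction. Its fold was 9.21 in control cells (percentile 6.53) and 18.4 in PDS-treated cells (percentile 59.0). This rise by fold resembled that of the peak upstream of HBZ, and again the percentile by p-value moved little, from 27.4 to 28.5. At the end of LUC7L, a gene for a splicing factor, the peak was narrow in control cells (120 bp, fold 15.6, percentile 18.6) and stopped 107 bases short of the gene, whereas in PDS-treated cells it was 300 bp wide (fold 12.6, percentile 25.3) and reached exon 10. None of the 3 held a G4 motif or a CTCF match. Among the 11 coding genes overlapping the window, a peak over the canonical transcript was present at NPRL3, HBQ1 and RHBDF1 in control cells and also at LUC7L in PDS-treated cells, and at none of POLR3K, SNRNP25 and MPG. These were 3 and 4 genes of 11, and 2 of the 6 member genes in each list, against 45.1% of all coding genes for control peaks and 41.5% for PDS peaks. Just beyond the window, 3583 bp (control) and 3523 bp (PDS) outside its border, a shared peak with 1 G4 motif lay at exon 1 of FAM234A, with a fold of 27.6 (percentile 53.2) and 7.58 (percentile 5.29). Its percentile by p-value was 75.1 and 96.7, so the measures again moved in opposite directions.

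**Figure D3:**
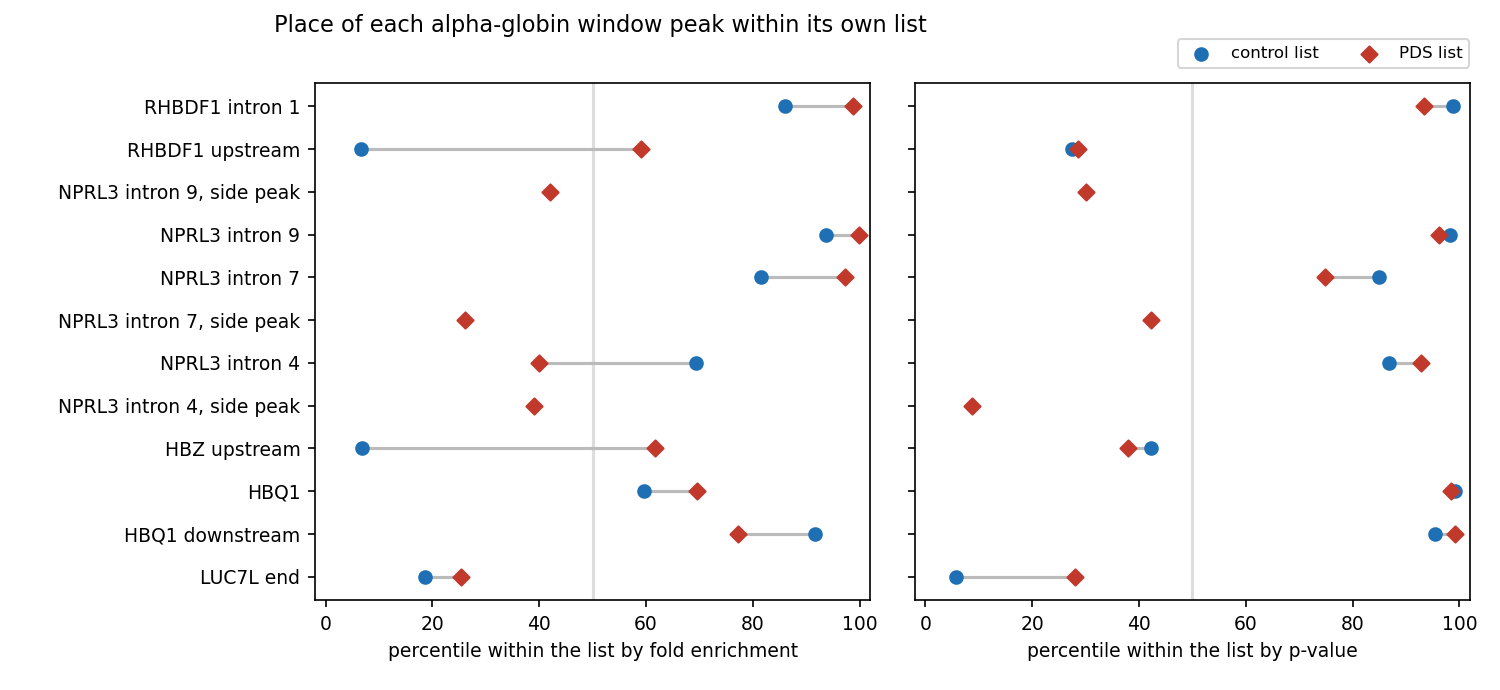
Percentile of each peak of the window within its own list, by fold enrichment (left) and by p-value (right), for the control list (blue circles) and the PDS list (red diamonds), with a line joining the counterparts. By fold, the peaks upstream of the canonical transcripts of RHBDF1 and HBZ shift by over 50 points, while by p-value the counterparts lie closer together than by fold at all pairs except that of LUC7L.

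Across the 9 pairs of counterparts, the percentile by fold was higher in the PDS list by a median of 9.84 points, and individual pairs ranged from -29.4 to 54.8. It was lower in the PDS list at 2 pairs, those of NPRL3 intron 4 and behind HBQ1 (22.2%), against 48.6% of all 24633 peaks with a single counterpart. By p-value the median difference was -0.725 points, with a range from -10.1 to 22.3, and 5 of 9 pairs were lower (55.6%), against 43.7% of all pairs. Over all pairs the quartiles of the difference were -18.5 and 20.6 points by fold and -8.07 and 12.7 points by p-value. The percentile moved in opposite directions by fold and by p-value at 7 of the 9 pairs, against 62.2% of all pairs. Both pairs whose place by fold was lower held a G4 motif inside the peak, as did the pair at HBQ1, which was higher by fold. By p-value the order was the reverse. The pairs of NPRL3 intron 4 and behind HBQ1 were higher in the PDS list, by 6.10 and 3.62 points, and the pair at HBQ1 was lower (-0.725). Whether pairs with a G4 motif differ from the others over the whole lists was not tested.

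The locus was dense in G4 motifs. The window held 98 motifs, 47 on the plus and 51 on the minus strand, or 4.98 per 10 kb, against 1.87 on chromosome 16 and 1.23 on all chromosomes. The NPRL3 transcript held 12 motifs in 53.3 kb, or 2.25 per 10 kb. The 50 kb past the 3′ end of NPRL3 contained 37 motifs and the 50 kb behind HBQ1 contained 7. A control peak overlapped 4 of the 98 motifs (4.08%), against 1.96% of the 382381 motifs of the reference, and a PDS peak overlapped 3 (3.06%), against 2.08%. These shares do not allow for peak coverage, which was higher in the window. Control peaks covered 2.50% of it against 0.450% of all chromosomes, and PDS peaks 2.74% against 0.448%.

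Counted by peak, 3 of 9 control peaks overlapped a motif (33.3%, interval 12.1 to 64.6%), against 16.0% of all control peaks. In the PDS list it was 3 of 12 (25%, interval 8.89 to 53.2%), against 17.1% of all PDS peaks. These were the counterparts at NPRL3 intron 4, HBQ1 and behind HBQ1 in both lists. The intervals held the shares of the whole lists, and no peak with a G4 motif was without its counterpart in the other list. The shares depended on peak width. Within the 200 bp at the peak centre they were 11.1% (control) and 8.33% (PDS), against 9.58% and 10.0% of the whole lists.

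The peak-free stretch from upstream of HBZ to HBQ1 held 38 of the 98 motifs (38.8%), which were unevenly spread over it. Over the canonical transcripts of the globin genes within it, HBZ held 7 motifs and HBM, HBA2 and HBA1 held 1 each. Pseudogenes were left out of this count. A run of 4 motifs with 17 runs of G filled 99 bp of HBZ intron 2 at chr16:204114-204212. It was chosen because it belongs to HBZ, which held the most motifs of the 5 globin genes by canonical transcript. The longer record of HBM (chr16:203891-216763) also runs over it. No CTCF peak lay over these motifs. The run is given on the plus strand, with the runs of 3 or more G in capitals.
HBZ intron 2: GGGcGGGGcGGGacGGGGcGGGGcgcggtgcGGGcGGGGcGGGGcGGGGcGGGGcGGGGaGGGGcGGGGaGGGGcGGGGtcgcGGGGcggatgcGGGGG

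The beta-globin cluster on chromosome 11, with HBB, HBD, HBG1, HBG2 and HBE1, served as a comparison under the same rule. Its window measured 380.2 kb because the annotation records of HBG2 and HBE1 extend far upstream, and it held 10 control peaks (2.63 per 100 kb) and 8 PDS peaks (2.10 per 100 kb). In both lists 7 of these peaks had a counterpart. The beta-globin window had 34 motifs, or 0.894 per 10 kb against 4.98 in the alpha-globin window, and no peak with a motif, which allows a share of up to 27.8% for the control list and 32.4% for the PDS list. The intervals of the G4 share in the clusters overlapped, so a difference was not detectable at these numbers of peaks. The median percentile by fold was 39.1 and 47.7 in the beta-globin window and 69.3 and 60.3 in the alpha-globin window.

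**Figure D4:**
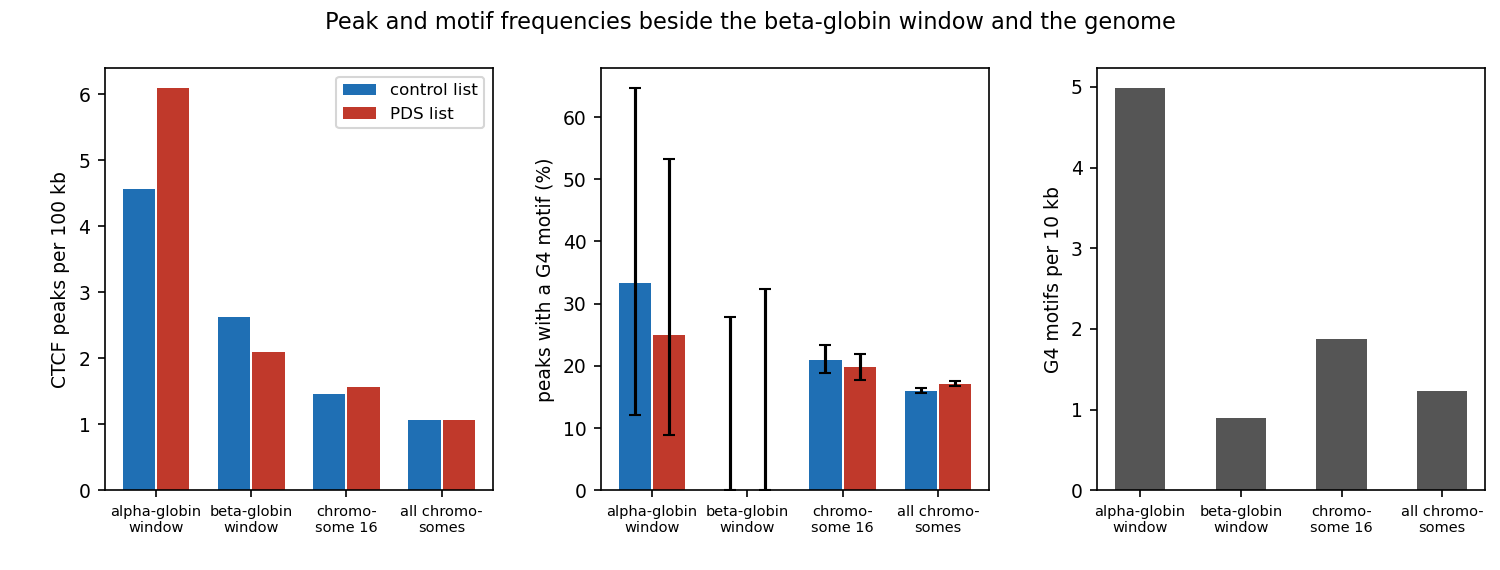
CTCF peaks per 100 kb (left), percentage of peaks with a G4 motif with Wilson 95% intervals (centre) and G4 motifs per 10 kb (right) in the alpha-globin window, the beta-globin window, chromosome 16 and all chromosomes, for the control (blue) and PDS (red) lists. The alpha-globin window has the highest bars for peaks and motifs, while its intervals for the G4 share are wide and include the values of all chromosomes.

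Within 5 kb of a gene record, peaks were present at 4 of the 6 member genes in each list, NPRL3, HBZ, HBA1 and HBQ1, against 62.7% of all coding genes for control peaks and 59.3% for PDS peaks. Of 14 genes that act with the globin genes in red cells, 9 had a peak within 5 kb in each list. These included the erythroid factors KLF1 (1 control and 2 PDS peaks), NFE2 (3 and 4), LMO2 (1 and 1) and LDB1 (3 and 3), the fetal globin repressor BCL11A (1 and 1), the GATA1 cofactor ZFPM1 (4 and 4), the haem synthesis genes FECH (2 and 2) and UROD (2 and 2), and the haem-regulated kinase gene EIF2AK1 (1 and 1). None was found at AHSP, which encodes the chaperone of free alpha chains, at ATRX, which encodes a chromatin remodeller whose mutation can cause alpha-thalassaemia, at GATA1 and TAL1, which encode factors that bind the alpha-globin enhancers, or at ALAS2, the first enzyme of erythroid haem synthesis. Shares of 4 in 6 and 9 in 14 were near those of all coding genes, and the same genes had a peak in both lists.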

How the data were processed

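CTCF ChIP-seq of K562 cells was analysed here from 2 deposited peak lists, 1 per condition, and signal tracks or reads of single replicates were not analysed here. The authors mapped the reads to hg19 with Bowtie2 2.2.3, discarded PCR duplicates and reads that mapped ambiguously, and called peaks with PePr, with 1 list for both replicates of a condition. The deposited score of each peak was only compared with its fold, and the adjusted p-value was not used. The deposited fold enrichment over IgG and the p-value were computed by the authors and ranked peaks within a list. No p-value of either list exceeded 1.00e-05, although the stated PePr cutoff was 0.05. The labels tie 1 IgG sample to the control list and 2 to the PDS list, and which IgG samples entered each call is not stated further. Depth per sample is unknown.

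Peaks were paired by an overlap of at least 1 bp. Gene positions and sequences came from GENCODE and GRCh37, and canonical transcripts gave exons and introns. From each list 1 peak, on a sequence missing from the reference, was left out of motif searches. A 50-mer was unique when it occurred once in the reference chromosomes on either strand. Shares have Wilson 95% intervals. No test was run, because each condition has 1 list. Motif searches, overlaps and 50-mer counts were tested on simulated data, and all 200 planted G4 motifs, 200 planted consensus sites and 100 planted overlaps were found. Alternatives covered the window, peak stringency and merging, the overlap, the motifs and the ranking. The genes, windows and lists were chosen with earlier results of these data known. Described in full were the 3 highest peaks by fold in each list, peaks over a member gene or the 5 kb upstream, and peaks without a counterpart. The promoters of HBZ, HBA1, HBA2 and HBQ1 and 1 G-rich sequence are not reported here. The work was done in Python 3.11.15 (scipy 1.17.1, numpy 2.4.6, matplotlib 3.10.9, pandas 2.3.3, pyfaidx 0.9.0.4), with samtools 1.23.1.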

Additional observations from a re-analysis of the deposited data

How the results depend on the processing

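Of 40 alternative values, 31 stayed within the spread taken as unchanged, 9 moved and 0 reversed. Without extension of the gene span the control peak count was 5 instead of 9. With the 50% of peaks of smallest p-value the PDS count was 6 instead of 12, and the share of PDS peaks with a counterpart was 100% instead of 75%, since the 3 side peaks of NPRL3 fell away. That share was also 100% when a gap of at most 1 kb was allowed. With runs of 2 or more G, the share of peaks with a G4 motif was 100% (control) and 91.7% (PDS), against 77% and 82.7% of the whole lists, and in the 200 bp at the peak centre it was 11.1% and 8.33%, against 9.58% and 10.0%. Ranked by p-value, the median percentile of the control peaks was 86.8 instead of 69.3, and that of the PDS peaks 58.6 instead of 60.3. From the peak lists no paired analysis was possible, because both replicates of a condition share 1 list. For this reason no value without a replicate was computed here either. With 9 and 12 peaks, the intervals of shares were wide. Unknown depth limits what the absence of a peak means.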

Other observations

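Another dense group of G4 motifs lay in MPG, the gene of a DNA glycosylase next to NPRL3. There, 9 motifs on the minus strand filled chr16:131622-132221 with a step of 57 bp between neighbours at 7 of 8 steps, and no CTCF peak of either list lay over them. In this repeat 70.4% of 50-mers were unique. In the whole window, 10 motif sequences occurred more than once on the same strand and together made up 23 of the 98 motifs. In the deposited lists the score of a peak divided by its fold was 3.97 throughout the control list and 6.54 throughout the PDS list, so that the score held no information on the globin peaks beyond the fold.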
